A study of Mus musculus with 186 samples.

Results

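The genes followed here are 8 ligand, receptor and adaptor genes upstream of phosphoinositide 3-kinase (PI3K), in single cells of the mouse inner cell mass. They are the ligands Pdgfa and Igf2, the receptors Pdgfra, Igf1r, Insr and Igf2r, and the adaptors Irs1 and Irs2. They were picked by name, not by value, out of 55421 gene lines, and all 8 had a line in the expression table. CD-1 embryos from natural matings were stripped of the zona pellucida and their outer cells were lysed by immunosurgery. Fresh embryos of 3 stages were collected in 2 experiments per stage, with 19 cells at E3.25, 22 cells at E3.75 and 14 cells from E4.0. Other embryos were taken at E2.75, at the morula stage, and grown in KSOM, an embryo culture medium, with either 10 µM LY294002 (LY), a PI3K inhibitor that also acts on other kinases, or the vehicle DMSO. Culture for 16 hours gave 31 DMSO and 31 LY cells, and culture for 24 hours gave 28 DMSO and 24 LY cells, each arm in 3 experiments of 3 to 18 cells. Each experiment drew on more than 1 litter, and the 16h embryos were collected on later dates than all other groups, so culture time and date cannot be told apart.

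In PDGF signalling, PDGF-A dimers bring together PDGF receptor alpha, a tyrosine kinase whose phosphorylated tail binds PI3K directly. Insulin and the insulin-like growth factors act through the tyrosine kinases IGF1R and INSR, which phosphorylate the adaptors IRS1 and IRS2 and so dock PI3K. IGF2R has no kinase: it carries IGF2 to the lysosome. In the blastocyst Pdgfra is a widely used marker of primitive endoderm, the inner layer that lines the yolk sac, whereas the epiblast forms the embryo proper. Igf2 and Igf2r are imprinted genes, at later stages read mainly from the paternal and the maternal copy respectively. Which copy was read in the cells studied here was not examined.

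The genes lie on 5 mouse chromosomes in build mm10. Pdgfra (chr5:75152292-75198215, plus strand) and Pdgfa (chr5:138976014-138997370, minus strand) share chromosome 5, and Igf1r (chr7:67952827-68233668, plus) and Igf2 (chr7:142650766-142666816, minus) share chromosome 7. Insr (chr8:3122061-3279617, minus) and Irs2 (chr8:10984681-11008458, minus) lie on chromosome 8, Irs1 (chr1:82233101-82291416, minus) on chromosome 1 and Igf2r (chr17:12682406-12769664, minus) on chromosome 17. RefSeq promoter windows of build GRCm38.p6, short stretches around a gene's annotated start, were found for 7 of the 8 genes, in 11 windows. The GC box GGGCGG, searched on both strands, was present in 8 of the 11 windows, against 35.66% of 32851 windows of all genes. By gene, 6 of the 7 had it in some window, against 38.2% of 27025 genes, and Pdgfra had none. Neither the forkhead motif GTAAACA (3.65% of all windows) nor the GATA motif AGATAA (11.18%) was found in any window of the 7 genes. One GC box stretch each is printed for a gene detected in most cells, one detected in about as many cells as not, and 2 detected in few, with the box in capitals:
Pdgfa, chr5:138994324-138994353, minus strand: gggaggggactaGGGCGGgcagtaagcagg
Igf2r, chr17:12769764-12769793, minus strand: tgacccgggactGGGCGGagagcacctgaa
Igf1r, chr7:67952202-67952231, plus strand: ggagtcggcggcGGGCGGgggccgacgcgg
Irs2, chr8:11008997-11009026, minus strand: tgcagggctgcgGGGCGGggcgtccgcgcg
The same 6 letters thus lie by an annotated start of genes whose RNA was found in 152, 93, 4 and 1 of 169 cells. Pdgfa has 2 windows, and the stretch printed for it lies inside the gene's span given above. A match is a description of the letters and not a binding site.

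Abundance is given as TPM, the share of a cell's transcripts after correction for transcript length, and a gene is called detected in a cell at a TPM of 1 or more. An experiment comprises all cells in a group with the same date, and its level is the mean over cells of log2(TPM + 1). Groups are compared over these 18 experiment levels. TPM keeps no read depth, so depth is unknown, and 3806 to 10220 genes (median 6584) were detected per cell. LY and DMSO embryos were collected side by side on 3 dates per culture time. On each of these 6 dates fewer genes were detected per cell with LY than with DMSO. The means with DMSO were 9995, 7156 and 7102 at 16 hours against 8303, 6384 and 5809 with LY, and 5726, 6668 and 6969 at 24 hours against 4556, 6389 and 5373. The epiblast factor Nanog was detected in 164 and Gata6 in 153 of 169 cells. Genes found this widely do not test the inner cell label. RNA of the outer layer was also present. Over 12 trophectoderm markers the summed log2 level of an experiment ran from 13.97, at E3.75, to 51.31, with DMSO at 16 hours, against 21.76 to 59.14 for 12 epiblast markers. Of the 12, Elf5 was at 0 in every cell of 4 groups, Cdx2 was at 0 throughout E3.75, and no other marker was at 0 in a whole group. A pair of 24h LY columns with titles that differ only in a suffix correlated less (r = 0.59) than the closest match of either with another cell of its experiment (0.72) and counts as 2 cells. Averaged to 1, an alternative added after the values were seen, it left Pdgfra in 6 of 23 cells there and Igf2r in 10. It gave no call among those of the 8 genes that were tested.

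Of the 8 genes, the ligand Pdgfa was detected most often and Irs1 not at all. Pdgfa was detected in 152 of 169 cells, Igf2r in 93, Pdgfra in 78, Igf2 in 33, Insr in 14, Igf1r in 4, Irs2 in 1 and Irs1 in 0. With the higher bar of a TPM of 10, Pdgfa remained in 127 cells and Pdgfra and Igf2 in 14 each, whereas Igf2r remained in 6, Insr in 1 and the other 3 in 0. A cell held a median of 2 of the 8 genes, between 0 and 5, and 5 cells held none, all of them cultured. The libraries start at the 3′ end of transcripts while TPM divides by transcript length, so a long transcript needs more reads for the same TPM. The longest annotated transcripts are 11409 bases for Igf1r, 9355 for Insr, 9144 for Irs1, 8887 for Igf2r, 6834 for Pdgfra, 6323 for Irs2, 4722 for Igf2 and 2060 for Pdgfa. The part of length in the order of detection was not tested. The shares in each group are shown in the plot of detection.

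**Figure D1:**
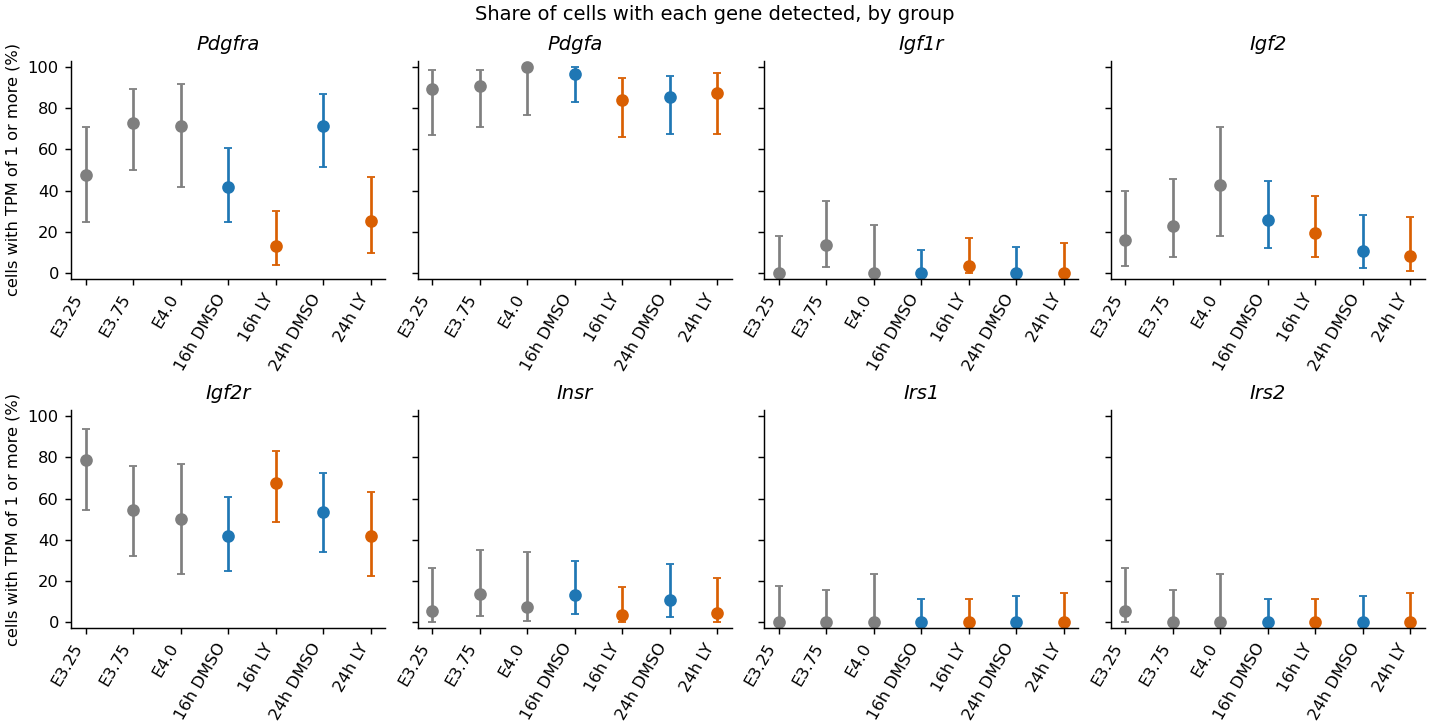
Share of cells (percent, y axis) in which each of the 8 genes had a TPM of 1 or more in the 7 groups (x axis); bars are exact Clopper-Pearson 95% intervals, and grey, blue and orange mark fresh, DMSO and LY groups. Pdgfa lies at 83.87% or above in all 7 groups, Pdgfra is at 12.9% and 25% with LY against 41.94% and 71.43% with DMSO, and Irs1 is at 0 throughout.

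Pdgfa, which encodes the A chain of PDGF, was detected in all groups. It was found in 17 of 19 cells at E3.25, 20 of 22 at E3.75 and in all 14 E4.0 cells, with median TPM values of 46.2, 24.7 and 64.7 in that order. The E3.25 experiments had log2 levels of 4.63 and 5.40, the E3.75 experiments 4.01 and 5.51 and the E4.0 experiments 5.43 and 6.31. Both E4.0 experiments were thus above both E3.25 experiments, while the E3.75 experiments fell on either side. The E4.0 minus E3.25 difference was 0.85 ± 0.91 (SE, adjusted p = 0.763), below its error.

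With PI3K inhibited Pdgfa showed no common direction. At 16 hours the DMSO levels were 5.59, 4.39 and 4.72 on the 3 dates and the LY levels 5.38, 3.47 and 5.50. At 24 hours they were 3.14, 4.66 and 5.42 with DMSO and 3.89, 5.94 and 4.58 with LY. The level was lower with LY on 3 of 6 dates and higher on 3. The LY minus DMSO difference was -0.12 ± 0.75 (SE, adjusted p = 0.983) at 16 hours and 0.39 ± 0.75 (adjusted p = 0.970) at 24 hours, and its sign turned under other settings at both times. By mean level over experiments the order was E4.0 (5.87 ± 0.62 SD), E3.25 (5.01 ± 0.54), 16h DMSO (4.90 ± 0.62), 24h LY (4.80 ± 1.04), 16h LY (4.78 ± 1.14), E3.75 (4.76 ± 1.07) and 24h DMSO (4.41 ± 1.16), with n = 2 for fresh and 3 for cultured groups. Only E4.0 and E3.25 were neighbours separated by more than their larger SD.

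Pdgfra, the receptor for PDGF-A, was detected less often with LY than with DMSO on every date, but the difference in level did not pass the test. At 16 hours 13 of 31 DMSO cells (41.94%, 95% interval 24.55 to 60.92) and 4 of 31 LY cells (12.9%, 3.63 to 29.83) had it. At 24 hours it was in 20 of 28 DMSO cells (71.43%, 51.33 to 86.78) and 6 of 24 LY cells (25%, 9.77 to 46.7). These intervals cover counting error only and treat cells of 1 date as independent, which they are not. In LY cells that had Pdgfra the median TPM was 1.81 at 16 hours and 6.26 at 24 hours, against 5.66 and 6.29 with DMSO. In a mean over cells, fewer expressing cells and less RNA per cell cannot be told apart.

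By date, the share of cells was lower with LY each time. At 16 hours it was 100%, 44.44% and 20.0% with DMSO and 18.18%, 14.29% and 0.0% with LY. At 24 hours it was 16.67%, 81.82% and 90.91% with DMSO and 0.0%, 41.67% and 20.0% with LY. The share was lower with LY on 6 of 6 dates, which held for 6.61% of the 11680 genes tested. The first 16h DMSO date had only 3 cells, all with Pdgfra. Split by sequencing run, the share with Pdgfra was lower with LY in both. Both runs hold cells of the same dates, so they are no independent repeat. How many of all genes did likewise was not counted. In run 1 Pdgfra was in 7 of 19 DMSO and 0 of 18 LY cells at 16 hours and in 9 of 13 and 2 of 9 at 24 hours. In run 2 it was in 6 of 12 and 4 of 13 at 16 hours and in 11 of 15 and 4 of 15 at 24 hours.

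The levels of Pdgfra overlapped between the arms. On the log2 scale the 16h levels were 2.89, 1.32 and 0.33 with DMSO and 0.50, 0.39 and 0.36 with LY. The 24h levels were 0.68, 2.44 and 2.67 with DMSO and 0.01, 1.44 and 0.43 with LY. At each time 1 DMSO date lay below the highest LY date. The level was lower with LY on 5 of 6 dates, as was true on at least 5 dates for 32.2% of genes tested.

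**Figure D2:**
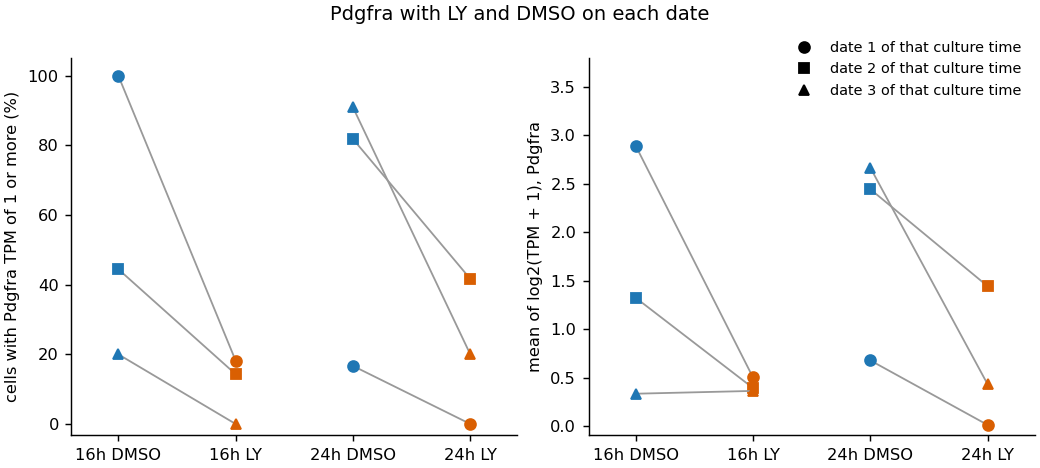
Pdgfra with DMSO (blue) and LY (orange) on each of the 3 dates of a culture time, joined by a line: at left the percentage of cells with a TPM of 1 or more, at right the mean log2(TPM + 1). All 6 lines at left slope down, and at right the third 16h date is level (0.33 and 0.36).

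In the fit reported, which does not pair the arms by date, the LY minus DMSO difference of Pdgfra was -1.10 ± 0.66 (SE, limma p = 0.110, adjusted p = 0.854) at 16 hours and -1.30 ± 0.66 (p = 0.0614, adjusted p = 0.899) at 24 hours. The median over all genes tested was -0.33 and -0.20. Averaged over both times, a comparison added after these values were seen, the difference was -1.20 ± 0.47 (p = 0.0176, adjusted p = 0.534), where 8.84% of genes had an unadjusted p under 0.05 and 0.0% passed the adjusted threshold. Without the 3-cell DMSO date the 16h difference was -0.41. With the number of genes detected as a covariate it was -0.35 ± 0.57 at 16 hours and -0.70 ± 0.56 at 24 hours. Among 16 primitive endoderm markers, 12 were lower with LY at 16 hours (median -0.55) and 15 at 24 hours (median -0.28), none past the threshold. Of 12 epiblast markers, 10 were lower at 16 hours (median -0.30) and 9 at 24 hours (median -0.24), also none past it. The medians of all genes, given above, were below 0 as well. All 11 trophectoderm markers tested were lower with LY at 16 hours (median -0.80), where their summed log2 level over 12 genes was 22.1 to 51.3 with DMSO and 17.8 to 28.6 with LY, and 5 of 11 were lower at 24 hours. The part of these markers and of the genes detected in the Pdgfra values was not tested.

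In fresh embryos Pdgfra was present from E3.25 on and varied as much within as between stages. It was in 9 of 19 E3.25 cells, 16 of 22 E3.75 cells and 10 of 14 E4.0 cells. The levels were 0.85 and 2.56 at E3.25, 1.82 and 1.31 at E3.75 and 1.68 and 2.59 at E4.0, so the E3.25 experiments spanned all but 1 of the others. The highest value of all cells, a TPM of 175.6, was in an E3.25 cell, where the median of detected cells was 9.34. The highest at E4.0 was 15.2. The E4.0 minus E3.25 difference was 0.43 ± 0.81 (SE, adjusted p = 0.885), and its sign turned under several settings. By mean level the order was E4.0 (2.14 ± 0.64 SD), 24h DMSO (1.93 ± 1.09), E3.25 (1.71 ± 1.21), E3.75 (1.57 ± 0.36), 16h DMSO (1.52 ± 1.29), 24h LY (0.63 ± 0.74) and 16h LY (0.42 ± 0.07), and no neighbours differed by more than their larger SD.

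**Figure D3:**
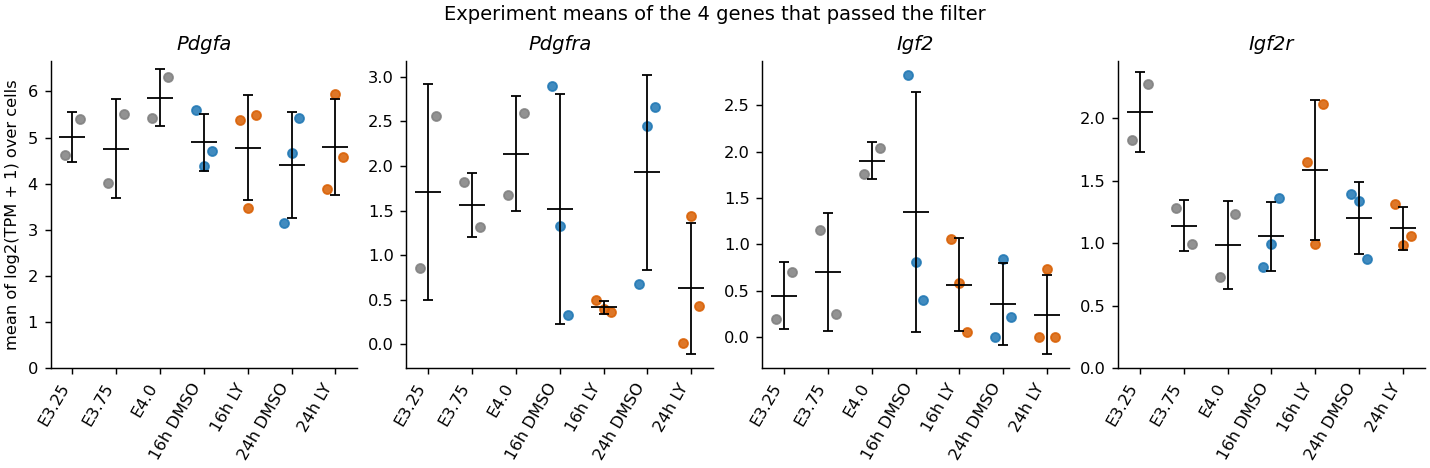
Mean log2(TPM + 1) over the cells of each experiment (points, y axis) for Pdgfa, Pdgfra, Igf2 and Igf2r in the 7 groups (x axis); black lines are the group mean ± SD over 2 or 3 experiments. Pdgfra with LY lies below 0.51 in 5 of 6 experiments, Igf2 is highest among fresh stages at E4.0 (1.76 and 2.04) and Igf2r at E3.25 (1.83 and 2.28).

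Cells with Pdgfra mostly carried its ligand and markers of both inner lineages. Of the 78 cells with Pdgfra, 73 also had Pdgfa, 74 had Gata6, a transcription factor of primitive endoderm, and 78 had Nanog, a factor of epiblast. Across the 169 cells as a whole 152 had Pdgfa, 153 Gata6 and 164 Nanog, so these overlaps start from genes found nearly everywhere. Sox17, a later factor of primitive endoderm, was in 34 of the 78 cells with Pdgfra. Among cells without Pdgfra, 10 had Sox17 and 81 did not. By stage, Sox17 was in 4 of 9 Pdgfra cells at E3.25, 9 of 16 at E3.75 and 8 of 10 at E4.0, and in 1 of 10, 2 of 6 and 3 of 4 cells without Pdgfra. Cells of 1 date and depth are shared by these counts. Over all cells, with each value taken relative to its experiment's mean, Pearson's r of Pdgfra was 0.13 with Sox17, 0.20 with Gata4, 0.17 with Pdgfa, 0.18 with the mean of the 16 primitive endoderm markers and 0.14 with the number of genes detected. Over all cells r was also 0.04 with Gata6, 0.06 with Nanog and 0.12 with the mean of the epiblast markers. Outside 16h LY, r within groups was 0.09 to 0.32 with the endoderm mean and -0.18 to 0.31 with the epiblast mean. With Gata6 it was -0.38 to 0.31 in the same groups. In 16h LY r with the endoderm mean was 0.61. There r was also 0.50 with Sox17 and 0.49 with the mean of the epiblast markers, and 4 of the 31 cells had Pdgfra. In sparse single-cell values the weak correlations are no finding.

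Igf2, the ligand of IGF1R and of one form of INSR, was found in few cells, most often at E4.0. It was detected in 3 of 19 E3.25 cells, 5 of 22 E3.75 cells and 6 of 14 E4.0 cells. The levels were 0.19 and 0.70 at E3.25, 1.15 and 0.25 at E3.75 and 1.76 and 2.04 at E4.0, so both E4.0 experiments lay above all 4 earlier ones. That pattern held for 15.4% of genes tested. The E4.0 minus E3.25 difference was 1.46 ± 0.59 (SE, limma p = 0.0230, adjusted p = 0.290), in a comparison where 12.9% of genes had an unadjusted p under 0.05 and 1.67% passed the adjusted threshold, among them 7 of the 16 primitive endoderm markers, all higher at E4.0. Of 12 epiblast markers 2 passed, also higher. The median difference was 2.43 for the endoderm list, 1.13 for the epiblast list and 0.20 for all genes. The E4.0 minus E3.75 difference was 1.20 ± 0.59 (p = 0.0561, adjusted p = 0.548), with 1.41% of genes passing. The highest TPM, 179.4, was in an E3.75 cell. The E4.0 experiments also had more genes detected per cell, 7236 and 7682, against 6393 and 6078 at E3.25 and 6371 and 6000 at E3.75. Their mean mitochondrial share of TPM was 16.1% and 14.3%, against 3.05% and 10.8% at E3.25 and 16.1% and 4.54% at E3.75. With genes detected as a covariate the E4.0 minus E3.25 difference of Igf2 was 0.76 ± 0.42, and the part of the mitochondrial share was not tested.

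At E4.0 all cells with Igf2 lay above their experiment's mean for the primitive endoderm markers. All 6 had Sox17, which was in 5 of the 8 cells without Igf2. In the first E4.0 experiment 3 of 9 cells had Igf2, at TPM 41.9, 39.9 and 33.3, and they were the 3 cells with the highest mean of the 16 markers, 2.13, 1.38 and 1.91 above the experiment's mean on the log2 scale. In the second, 3 of 5 cells had it, at 8.25, 7.28 and 14.5, with marker means 0.17, 0.65 and 0.52 above the mean, and a cell without Igf2 lay 0.43 above it. Relative to experiment means, Pearson's r of Igf2 over the 14 cells was 0.75 with Sox17, 0.34 with Gata6 and 0.67 with the marker mean. At E3.25 (19 cells) the r with the marker mean was 0.07 and at E3.75 (22 cells) -0.29. The cells of an experiment share date and collection, and with Igf2 at 0 in most of them r rests on a few cells.

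In culture Igf2 was detected in 8 of 31 DMSO and 6 of 31 LY cells at 16 hours and in 3 of 28 and 2 of 24 at 24 hours. The 16h levels were 2.82, 0.81 and 0.41 with DMSO and 1.06, 0.59 and 0.06 with LY, lower with LY on each date. The 24h levels were 0.00, 0.85 and 0.22 with DMSO and 0.00, 0.73 and 0.00 with LY, all within 1 log2 unit of 0. The LY minus DMSO difference was -0.78 ± 0.48 (SE, adjusted p = 0.854) at 16 hours and -0.11 ± 0.48 (adjusted p = 0.996) at 24 hours. Without the 3-cell DMSO date the 16h difference was -0.045. Between DMSO arms, 24 minus 16 hours was -0.99 ± 0.48 (p = 0.0535, adjusted p = 0.469), with 0.00856% of genes passing, and the 2 culture times were collected on different dates, so time and date cannot be told apart. By mean level the order was E4.0 (1.90 ± 0.20 SD), 16h DMSO (1.35 ± 1.29), E3.75 (0.70 ± 0.63), 16h LY (0.57 ± 0.50), E3.25 (0.45 ± 0.36), 24h DMSO (0.36 ± 0.44) and 24h LY (0.24 ± 0.42), with no neighbours apart by more than their larger SD.

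The Igf2 locus overlaps other annotated genes, and no source used here says whether counting used the strand, so their reads may not be separable. The antisense gene Igf2os was detected in 2 cells, 1 of them with Igf2. The overlapping gene Gm49394 was detected in 0 cells, and the neighbouring imprinted H19 in 1. Airn, the RNA antisense to Igf2r, was detected in 0 cells, with a highest TPM of 0.94.

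Igf2r, the clearance receptor of IGF2, was highest at E3.25. It was in 15 of 19 E3.25 cells, 12 of 22 E3.75 cells and 7 of 14 E4.0 cells. The fall in this share was mostly in sequencing run 2. There Igf2r was in 10 of 13, 5 of 12 and 1 of 6 columns of these stages, with the averaged E3.25 pair kept apart. In run 1 it was in 6 of 7, 7 of 10 and 6 of 8. The levels were 1.83 and 2.28 at E3.25, 1.29 and 1.00 at E3.75 and 0.73 and 1.23 at E4.0, so both E3.25 experiments lay above the 4 later ones, as for 8.13% of genes tested. The E4.0 minus E3.25 difference was -1.07 ± 0.53 (SE, p = 0.0545, adjusted p = 0.404) and the E3.75 minus E3.25 difference -0.91 ± 0.53 (p = 0.0973, adjusted p = 1.0, with 0.0% of genes passing). The 16h DMSO minus E3.25 difference was -0.999 ± 0.48 (p = 0.0498, adjusted p = 0.364), where 13.7% of genes had an unadjusted p under 0.05 and 0.0514% passed. Over these stages Igf2 and Igf2r were thus ordered oppositely, and neither order passed the test.

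With LY, the level of Igf2r was higher on 4 dates and lower on 2. The 16h levels were 0.81, 0.99 and 1.36 with DMSO and 1.65, 1.00 and 2.12 with LY, higher on each date, though by only 0.0046 on the second, where the share of cells was lower (35.71% against 38.89%). The 24h levels were 1.39, 1.34 and 0.87 with DMSO and 1.32, 0.99 and 1.06 with LY. It was detected in 13 of 31 DMSO and 21 of 31 LY cells at 16 hours and in 15 of 28 and 10 of 24 at 24 hours. The LY minus DMSO difference was 0.53 ± 0.43 (SE, adjusted p = 0.860) at 16 hours and -0.08 ± 0.43 (adjusted p = 0.996) at 24 hours. The difference between these effects, -0.61 ± 0.61 (p = 0.324, adjusted p = 1.0), was the one with the smallest p among the 4 genes tested for that comparison, and 0.0% of all genes passed it. By mean level the order was E3.25 (2.05 ± 0.32 SD), 16h LY (1.59 ± 0.56), 24h DMSO (1.20 ± 0.29), E3.75 (1.14 ± 0.20), 24h LY (1.12 ± 0.17), 16h DMSO (1.05 ± 0.28) and E4.0 (0.98 ± 0.35), with no neighbours apart by more than their larger SD.

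Within stages, the correlation of Igf2r with the primitive endoderm markers had both signs. Relative to experiment means, r with the mean of the 16 markers was -0.71 over 19 cells at E3.25, 0.51 over 22 at E3.75 and -0.73 over 14 at E4.0. With Sox17 alone it was -0.64, -0.31 and -0.54, and with Gata6, also on that list, 0.16, 0.21 and 0.38. Of the 93 cells with Igf2r, 21 had Sox17, and of those without it 23 had Sox17 and 53 did not. The cells of a stage come from only 2 dates and differ in depth. Of the 33 cells with Igf2, 20 also had Igf2r.

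**Figure D4:**
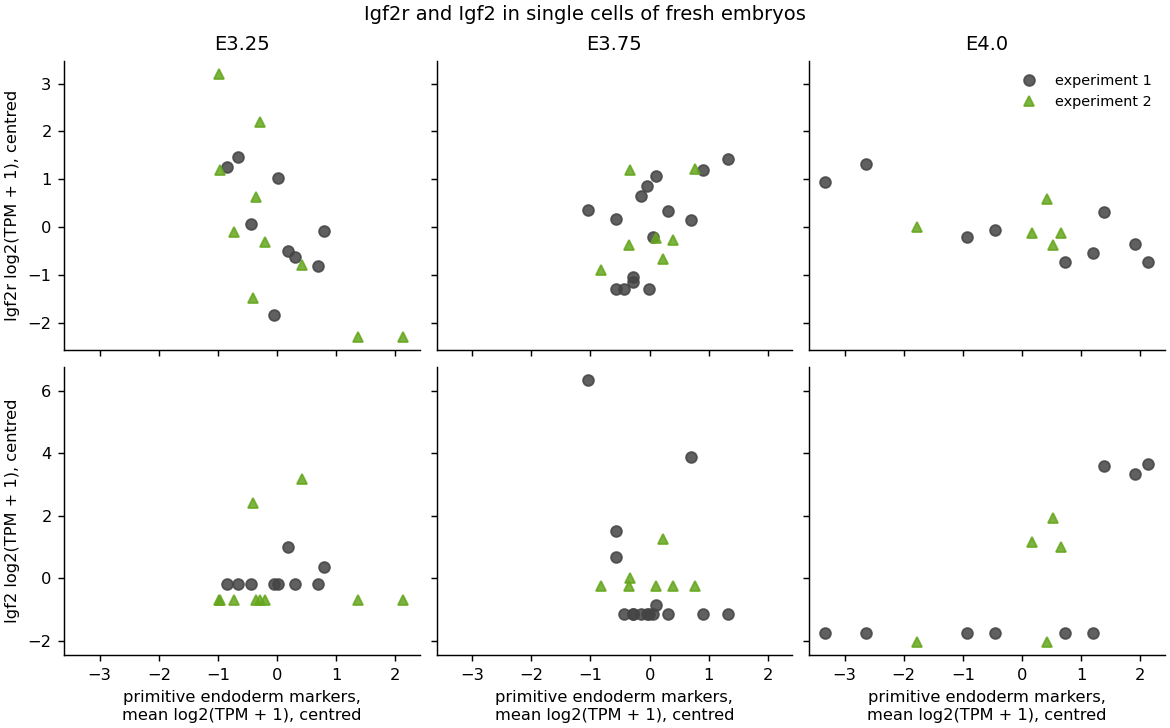
Log2(TPM + 1) of Igf2r (top) and Igf2 (bottom) in single cells against the mean log2(TPM + 1) of 16 primitive endoderm markers in the 3 fresh stages, each as the deviation from its experiment's mean; symbols mark the 2 experiments. The cloud of Igf2r slopes down to the right at E3.25 and E4.0 (r -0.71 and -0.73) and up at E3.75 (0.51), and the 6 E4.0 cells with Igf2 lie to the right of 0.

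Igf1r and Insr, the receptor kinases for IGF and insulin, were detected in few cells of any group. Igf1r was in 3 of 22 cells at E3.75 and in 1 of 31 16h LY cells, the highest at a TPM of 9.03, and in 0 cells of the other 5 groups. It was at exactly 0 in 151 of 169 cells. Insr was in 1 of 19 E3.25 cells, 3 of 22 E3.75 cells and 1 of 14 E4.0 cells. With DMSO it was in 4 of 31 and 3 of 28 cells at 16 and 24 hours, and with LY in 1 of 31 and 1 of 24. Its highest TPM was 35.5 in an E3.75 cell, the next 7.71, and it was at 0 in 124 cells. Igf2 was present in 1 of the 4 Igf1r cells and 2 of the 14 Insr cells.

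The adaptors Irs1 and Irs2 were close to unseen. Irs1 was detected in 0 of 169 cells, and a count of 0 allows a share of 1.775% (3 cells of 169), or 2.159% by the exact 95% interval. Both limits pool all groups and treat cells as independent, which cells of 1 date are not. They bound the share at a TPM of 1 or more, not the share of cells that express Irs1. Its highest TPM was 0.17. Irs2 was detected in 1 cell, an E3.25 cell whose value is the mean of 2 columns with near-identical titles and TPM 0.03 and 15.2, and the next highest value was 0.83. The 2 columns of that cell also differed for Igf2, 0 and 27.7, while Pdgfra was at 10.4 and 8.29. Genes used by every cell, such as Actb, Gapdh and Eef1a1, were at 0 in 0 cells. These 4 genes did not reach the filter of a TPM of 1 in 25% of the cells of a group, so no difference was tested for them in the fit reported, and at this unknown depth their absence was not shown.

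The filter left 4 genes, Pdgfa, Pdgfra, Igf2 and Igf2r, among 11680 tested. Over 9 comparisons none of the 36 gene tests passed limma's adjusted threshold of 0.05, and 2 had an unadjusted p under 0.05, Igf2 for E4.0 against E3.25 and Igf2r for 16h DMSO against E3.25. For LY against DMSO 0.0% of all genes passed at either time and 5.49% at 16 hours and 5.27% at 24 hours had an unadjusted p under 0.05, so these genes share the lack of calls with all others tested. For 24h DMSO against E3.75 the smallest p of the 4 genes was that of Igf2 (-0.35 ± 0.54, p = 0.529, adjusted p = 1.0), with 0.0% of genes passing.

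The remaining genes of the pathway were read from 8 lists. Of 9 other PDGF, insulin and IGF ligands and receptors, only Igf1 passed the filter. Ins1, Ins2, Insrr, Pdgfc and Pdgfd were detected in 0 cells, Pdgfrb in 1, Pdgfrl in 3 and Pdgfb in 19. Igf1, the other IGF ligand, was in 9 cells, of which 2 were at E3.75 and 6 of 14 at E4.0, and experiment levels of 1.70 and 0.38 at E4.0 against 0.0093 and 0.00 at E3.25. It passed the filter only through E4.0, where it is high, so no test of that difference is given. Of the 9 Igf1 cells 4 also had Igf2, and 3 of these 4 were at E4.0.

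The levels of an IGF binding protein and of a protease of such proteins were higher at E4.0 than at E3.25. Of 14 IGF binding proteins and their proteases 3 passed the filter, and 2 of these were called, where 1.67% of all genes tested were. Igfbp2, which binds IGF2, had levels of 0.15 and 0.19 at E3.25, 0.83 and 0.99 at E3.75 and 3.33 and 2.10 at E4.0, a rise of 2.55 ± 0.35 (SE, adjusted p = 0.000191). It passed the filter only through E3.75 (7 of 22 cells) and E4.0 (8 of 14), against 1 of 19 cells at E3.25. Its place among the genes tested thus rests on stages where it is high. Neither its call nor the count of 2 calls therefore lends support to the list. Htra1, a secreted protease that cleaves IGF binding proteins, had 0.67 and 0.00 at E3.25, 0.00 and 0.84 at E3.75 and 5.53 and 4.38 at E4.0, a rise of 4.62 ± 0.68 (adjusted p = 0.000373). Both also passed for E4.0 against E3.75, as 1.41% of all genes did, by 1.80 (adjusted p = 0.00823) and 4.53 (adjusted p = 0.000568). With genes detected as a covariate the differences from E3.25 were 2.46 and 4.11. Both calls were lost when only the 2 stages compared or only run 1 entered the fit, and that of Htra1 also with the log of the mean TPM. In culture Igfbp2 was in 1 or 2 cells of each group, and Htra1 in 12 of 31 DMSO and 10 of 31 LY cells at 16 hours but 1 of 28 and 1 of 24 at 24 hours. At E4.0, 4 of the 6 cells with Igf2 had Igfbp2.

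Of 40 other receptor tyrosine kinases 14 were tested and 1, Epha2, an ephrin receptor, passed for E4.0 against E3.25, where 1.67% of all genes did. It passed the filter only through E4.0, where 8 of 14 cells had it, so its call lends no support to the list. Its levels were 0.47 and 0.01 at E3.25 and 1.71 and 1.38 at E4.0, a difference of 1.31 ± 0.33 (SE, adjusted p = 0.0427), and E4.0 minus E3.75 was 1.42 (adjusted p = 0.0296). The first call was lost when any 1 of the 4 experiments was left out (adjusted p = 0.0607 to 0.410). It was also lost with no filter (adjusted p = 0.114), genes detected as a covariate (0.0540), log2(TPM + 10), the mean TPM, quantile normalization, either run alone and only the stages compared. The list's median difference was -0.13, beside 0.20 for all genes. Fgfr1, the FGF receptor found in most inner cells, was in 160 of 169 cells and had a difference of -2.14 ± 0.99 (adjusted p = 0.362).

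The steps between receptor and PI3K held no call in these 3 comparisons. Of 21 adaptors 13 were tested, with medians of -0.29 at 16 hours and 0.10 at 24 hours for LY minus DMSO, beside -0.33 and -0.20 for all genes. Detection of the 21 ranged from 0 cells, for Irs4 and Shc4, to 153, for Grb2. Named after their counts were seen, Ptpn11 was in 136 cells, Shc1 in 124 and Gab1 in 98, and Irs3 and Shc3 in 8 each, Nck2 in 3 and Frs3 in 1. Grb2, which links receptors to Ras, had a difference of -1.17 ± 0.62 (adjusted p = 0.899) with LY at 24 hours. Of 14 attenuators 13 were tested. Among them Socs3, an inhibitor of cytokine and insulin receptors, had levels of 3.002 and 4.13 at E3.25, against 0.41 and 2.76 at E3.75 and 0.60 and 2.25 at E4.0, a difference E4.0 minus E3.25 of -2.15 ± 0.68 (adjusted p = 0.140). Ptpn2, a phosphatase of insulin and PDGF receptors, had -1.58 ± 0.60 (adjusted p = 0.854) with LY at 16 hours. Of 9 class I PI3K subunits 6 were tested. The regulatory subunit Pik3r2 was in 119 cells and the catalytic Pik3ca in 47, Pik3cd in 28 and Pik3cb in 22, and the smallest adjusted p with LY was 0.855 at 16 hours (Pik3r1, -0.43 ± 0.30) and 0.931 at 24 hours (Pik3cb, 0.36 ± 0.28). Of 3 mRNA binding proteins named for Igf2, Igf2bp1 had the smallest p with LY at 16 hours, -1.56 ± 0.65 (adjusted p = 0.854). Of 10 imprinted growth genes 3 were tested, with medians of 0.70 and -0.29 with LY.

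The genes whose values followed a member most closely across cells were sought among 8929 genes detected in at least 25% of cells. Over 169 cells, relative to experiment means, Pdgfra was most like Fam53c (r = 0.33), Cd84 (0.32) and Pan2 (0.32). Pdgfa was most like Pgls (0.38), Eno1 (0.36) and Gapdh (0.36). Igf2r was most like Btrc (0.40), Ap2a2 (0.36) and Odc1 (0.35). These are the highest of many weak correlations, between cells that share dates and differ in depth.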

How the data were processed

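Single inner cells were profiled by 3′-primed RNA-seq in 2 runs, and the authors deposited 1 table of TPM values. RSEM 1.3.3, STAR 2.7.9a, cutadapt 2.9, bcl2fastq 2.20.0 and build mm10 are named in the submitters' processing notes. All 170 columns were matched to samples by title, and 16 of 186 labelled samples were not analysed here. A pair of E3.25 columns whose titles differ only in a suffix, more alike (r = 0.82) than either was to any other of its experiment (at most 0.78), was averaged; a like 24h LY pair (0.59, against 0.72) was kept as 2, giving 169 cells; spike-ins (92 lines) were left out. Experiment means of log2(TPM + 1) were fitted for all 7 groups with limma 3.58.1 in R 4.3.3 (eBayes with trend, 11 residual degrees of freedom) on 11680 genes with a TPM of 1 or more in 25% of the cells of a group, and p-values were adjusted within each comparison (Benjamini-Hochberg; threshold 0.05). Fold differences on this scale understate changes of low genes. The script was tested on simulated data. The 3 dates pair the LY and DMSO arms, per the labels; same-date deviations correlated at 0.39, 0.12 and 0.32 (16 hours) and 0.23, 0.12 and 0.073 (24 hours). The 8 genes and the lists were chosen with earlier results of these data known. Named genes were all 8, the list genes past the threshold or with the 2 smallest p of a comparison, and the 3 genes of highest r. Alternatives were other pseudocounts, filters, scalings, covariates, weights, runs, left-out experiments and the date as a block.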

Additional observations from a re-analysis of the deposited data

How the results depend on the processing

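In 181 refits over the 9 comparisons none of the 8 genes that entered a fit passed the threshold there (lowest adjusted p = 0.19). Igf1r, Insr, Irs1 and Irs2 entered only the refits with no filter, so the others hold no test of them. Igf2 was left out by the filter at 50% of cells. With the date as a block, which pairs the arms, the Pdgfra difference over both times was -1.20 ± 0.34 (adjusted p = 0.165), and the block changed no call. The LY differences of Pdgfra kept their sign in all alternatives run, from -1.83 to -0.31 at 16 hours and -2.61 to -0.39 at 24 hours. Signs turned for small differences. For E4.0 minus E3.25, Pdgfra was -0.0843 with log2(TPM + 10), -0.72 with the log of the mean TPM, -0.30 with genes detected as a covariate and -0.72 in run 2, and -0.43 to 1.28 with 1 experiment left out. For LY at 24 hours, Igf2r was 0.0020 with log2(TPM + 10), 0.16 with the mean TPM, 0.19 with quantile normalization and 0.35 in run 2 (-0.25 to 0.013 leaving 1 out). Igf2 was 0.020 with quantile normalization and 0.46 with the covariate (-0.36 to 0.13 leaving 1 out), and Pdgfa -0.78 in run 2 (-0.24 to 0.90 leaving 1 out). For LY at 16 hours Pdgfa was 0.37 with quantile normalization, 0.52 with the covariate and 0.14 in run 1 (-0.47 to 0.54 leaving 1 out). Over all genes, 195 passed for E4.0 against E3.25, but 129 with the mean TPM, 361 with no filter, 0 with only those stages in the fit, 14 in run 1, 316 in run 2 and 70 to 304 leaving 1 out; for LY at most 2 passed at 16 hours and 0 at 24 hours. Leaving out an experiment of a fresh stage leaves 1, assumed to vary like the other groups. The causes were not tested. Depth is unknown, and each group has 2 or 3 experiments, which limits precision. With a TPM of 10 in place of 1 the share with Pdgfra was 8.28%.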
